A study of Mus musculus with 3 samples.

Results

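The acute phase proteins are secreted proteins whose blood level changes with inflammation, injury and infection. The genes described here are serum amyloid A 1, 2 and 3 (Saa1, Saa2, Saa3), haptoglobin (Hp), orosomucoid 1 (Orm1), pentraxin 3 (Ptx3), lipocalin 2 (Lcn2) and Wfdc21, a gene of the whey acidic protein family. They were picked by name, with earlier results of the same arrays known, because several of them read high in high glucose and low with DKK2. Each of the 8 genes had 1 probe, found by the RefSeq accession of the probe, out of 20886 genes named in this way. All 8 were well above background on all 3 arrays, so none was lost to the filter on dim probes.

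The arrays measured RNA of primary endothelial cells labelled as coming from the penis cavernous tissue of C57BL/6 mice, grown in medium with serum, heparin and vascular endothelial growth factor A. The groups were normal glucose (5 mmol as labelled), high glucose (30 mmol) and high glucose with added DKK2 protein, each for 48 h. DKK2 is a secreted protein that binds the Wnt co-receptors; the labels state no dose. Each condition had 1 array, on which the RNA of 3 samples had been combined, so differences had no replicate check and no test was possible. Where genes are counted as higher or lower, the difference was 2-fold or more after scaling.

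In an acute phase response the liver, and also cells outside it, secrete such proteins under the control of cytokines. IL-6 and its relatives act through the receptor subunit gp130 and the transcription factor STAT3, while IL-1 and TNF act through NF-kappaB, and factors of the C/EBP family bind many of the target promoters. Endothelial cells, macrophages, fibroblasts and fat cells make some of these proteins locally: Ptx3 is made at the site of inflammation rather than in the liver, and in the mouse fat cells make haptoglobin and Saa3.

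Promoter sequences are shown because the genes read high on the same array and because factors of the C/EBP family are textbook regulators of this group. RefSeq's table for build GRCm38.p6 held the promoter of Saa1, Saa2, Saa3, Lcn2 and Ptx3, and none was matched for Hp, Orm1 and Wfdc21. Each window runs from 250 bases before the gene's start to 50 bases after it and is written 5′ to 3′ on the gene's own strand. Capitals mark each match, on either strand, to the C/EBP-type motif TTGCNNAA and to the NF-kappaB consensus. The windows are chr7:46742931-46743230 on the minus strand for Saa1, chr7:46751583-46751882 on the plus strand for Saa2, chr7:46715627-46715926 on the minus strand for Saa3, chr2:32387690-32387989 on the minus strand for Lcn2 and chr3:66219637-66219936 on the plus strand for Ptx3.
Saa1: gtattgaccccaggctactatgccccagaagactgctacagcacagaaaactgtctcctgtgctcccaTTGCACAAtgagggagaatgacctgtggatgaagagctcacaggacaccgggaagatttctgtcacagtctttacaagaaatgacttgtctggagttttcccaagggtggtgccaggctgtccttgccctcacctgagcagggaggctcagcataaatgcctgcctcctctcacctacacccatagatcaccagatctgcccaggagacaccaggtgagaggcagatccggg
Saa2: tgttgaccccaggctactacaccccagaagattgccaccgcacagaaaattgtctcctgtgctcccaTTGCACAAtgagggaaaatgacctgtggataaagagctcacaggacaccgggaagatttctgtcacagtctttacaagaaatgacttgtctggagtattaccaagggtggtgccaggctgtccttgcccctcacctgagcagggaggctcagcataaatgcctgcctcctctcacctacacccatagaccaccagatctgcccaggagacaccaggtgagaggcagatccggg
Saa3: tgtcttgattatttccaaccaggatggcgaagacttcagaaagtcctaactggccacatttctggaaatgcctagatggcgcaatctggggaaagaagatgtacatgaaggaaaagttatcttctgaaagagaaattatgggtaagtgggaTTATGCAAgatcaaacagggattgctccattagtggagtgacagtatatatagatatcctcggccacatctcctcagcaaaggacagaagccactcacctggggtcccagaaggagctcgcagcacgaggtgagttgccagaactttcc
Lcn2: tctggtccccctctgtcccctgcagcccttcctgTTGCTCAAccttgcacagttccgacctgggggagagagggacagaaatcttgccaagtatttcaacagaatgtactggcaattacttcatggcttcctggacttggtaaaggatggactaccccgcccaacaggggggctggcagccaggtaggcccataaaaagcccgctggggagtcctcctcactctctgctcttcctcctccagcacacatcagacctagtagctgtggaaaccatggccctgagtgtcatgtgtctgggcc
Ptx3: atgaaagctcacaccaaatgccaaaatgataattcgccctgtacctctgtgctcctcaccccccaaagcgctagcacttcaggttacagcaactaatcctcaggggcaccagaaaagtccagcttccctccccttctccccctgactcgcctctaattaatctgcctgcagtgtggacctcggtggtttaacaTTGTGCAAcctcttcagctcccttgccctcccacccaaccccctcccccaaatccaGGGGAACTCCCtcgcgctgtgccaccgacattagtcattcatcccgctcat

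The C/EBP-type motif was present in 5 of 5 of these windows and in 10.8% of 32851 promoter windows of the same length. Those 32851, called all windows below, leave out the promoters of 1 chromosome. In Saa1 and Saa2 the same letters, TTGCACAA, stood 182 and 183 bases before the start. Lcn2 had TTGCTCAA 216 bases before the start. On the opposite strand, read here along the gene, Saa3 had TTATGCAA 99 bases before the start and Ptx3 had TTGTGCAA 57 bases before it. The NF-kappaB consensus was present in 1 of the 5 windows and in 8.46% of all windows. In Ptx3 it matched in overlapping positions at the start itself, and the capitals there mark them as 1 run. The STAT-type motif TTCNNNGAA was in 0 of the 5 windows and in 8.30% of all windows, and the TATAAA box in 0 of the 5 and in 13.6%. The windows of Saa1 and Saa2 were identical at 287 of 299 aligned bases (96.0%), so their matches are not separate cases. The matches describe letters only, and binding was not measured.

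The arrays shared 1 slide, each at its own position, so condition cannot be told apart from position. The median probe signal on the normal glucose array was 102.0, against 196.3 on the high glucose array and 204.6 on the DKK2 array, and 76.7% to 84.7% of probes were well above background. The 75th percentile of the signal, by which each array was scaled, was 1201, 2380 and 2417 in that order, so equal scaled levels read about 1.98 times as bright in high glucose as in normal glucose. Of 22 endothelial markers, 20 passed the background limit in normal glucose, all 22 in high glucose and 21 with DKK2, among them Cdh5 at signals of 195, 568 and 311. Emcn and Erg, also on that list, were not well above background in normal glucose. The summed signal of the endothelial list's genes above background was 7.73, 9.73 and 10.5 times the 75th percentile in normal glucose, high glucose and DKK2. That of the fibroblast list was 615, 567 and 410. Sums over different probes are not a measure of cell numbers. All 16 fibroblast markers were above background on each array, and how many cells were of which type was not measured. In RNA from a whole culture, fewer cells of a type and less RNA per cell cannot be told apart.

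All 8 acute phase genes read highest on the high glucose array after scaling, as did 24.2% of 16653 genes measured on all 3 arrays. With normexp 6 of 8 did, without Lcn2 and Orm1, as did 16.8% of 16641 genes. Normexp is a model-based background correction, run here on the median spot signal with a fixed offset added to all signals. In high glucose 6 of 8 were higher than in normal glucose and 0 were lower, where 2.67% of 16766 genes were higher and 5.73% lower. With normexp 3 of the 8 were higher and 1 lower, where 1.03% of all genes were higher and 23.5% lower. With DKK2 5 of 8 were lower than in high glucose and 0 were higher, where 4.85% of 17825 genes were lower and 5.08% higher. Saa2, Saa3, Hp, Ptx3 and Wfdc21 did both, as did 60 of 16653 genes (0.36%); with normexp 3 of the 8 did (Saa3, Hp and Ptx3), as did 12 of 16641 genes. The genes were picked for this pattern, so these counts are a description of the choice. The median log2 difference of the 8 genes was 1.81 between high and normal glucose (0.09 over all genes) and -2.02 between DKK2 and high glucose (0.08 over all genes). With normexp these medians were 0.56 (-0.26 over all genes) and -1.84 (0.09). The high glucose array enters both differences, so a high reading on it alone moves them in opposite directions.

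**Figure D1:**
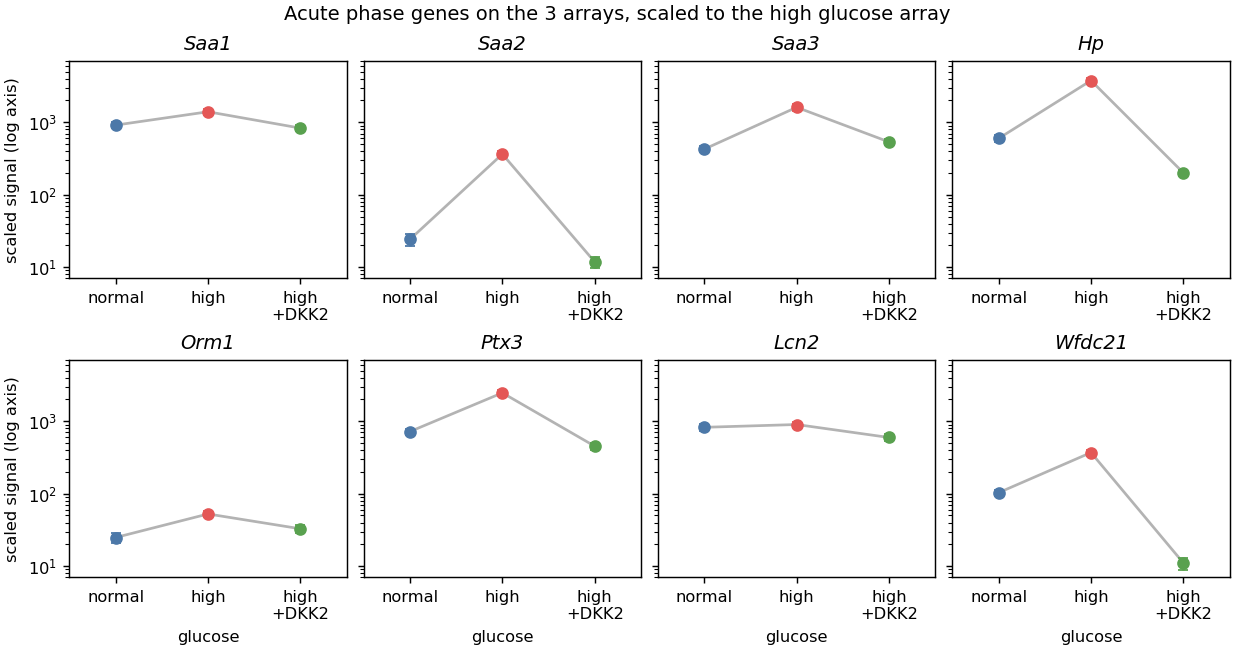
Signal of each acute phase gene (log axis, scaled so that the 75th percentile of every array equals that of the high glucose array) on the normal glucose, high glucose and high glucose with DKK2 arrays. Points are single arrays and bars are the scanner's error model, about 10% for bright probes and mostly hidden by the points. All 8 genes are highest on the middle array, and the panels of Saa2, Hp and Wfdc21 have the steepest lines. Levels of different panels come from different probes and are not comparable.

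Saa1 and Saa2 encode the acute phase apolipoproteins that travel on high density lipoprotein, and Saa3 encodes the form made mainly outside the liver in the mouse. The processed signal of Saa2 was 12.2 in normal glucose, against 364 in high glucose and 12.0 with DKK2. It was thus high on 1 array only, and the other 2 readings lay near 7.57 and 7.97, the lowest signals called above background on those arrays. After scaling, Saa2 was 15.1-fold higher in high glucose than in normal glucose (log2 difference 3.91, technical error SD 0.30), which was rank 3 from the top among 16766 genes. With DKK2 it was 30.9-fold lower than in high glucose (log2 difference -4.95, SD 0.30), rank 6 from the bottom among 17825. With normexp these log2 differences were 0.67 and -2.40. Between DKK2 and normal glucose the difference of Saa2 was -1.04 (SD 0.37), and -1.73 with normexp.

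The signal of Saa3 was 215 in normal glucose, against 1611 in high glucose and 543 with DKK2. High glucose was the highest of the arrays, and DKK2 and normal glucose lay close after scaling. The log2 difference was 1.92 (SD 0.20) between high and normal glucose, a 3.78-fold difference, and -1.59 (SD 0.20) between DKK2 and high glucose, 3.01-fold lower. Between DKK2 and normal glucose it was 0.33 (SD 0.20), and with normexp -0.17.

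The signal of Saa1 was 461, 1398 and 844 in normal glucose, high glucose and DKK2. High glucose was again the highest, yet by less than 2-fold in either direction. The log2 differences were 0.61 and -0.75 (SD 0.20 each), and that between DKK2 and normal glucose, -0.14, was smaller than its technical error. The transcripts of Saa1 and Saa2 are close copies, their symbols have been exchanged in the past (each is listed in RefSeq as a synonym of the other), and the probe sequences are not in the files. Signal from one gene on the other's probe was not tested. In the plane of the glucose and the DKK2 difference, Saa1 and Saa2 were 5.34 log2 units apart, and 1.72 with normexp.

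Haptoglobin, encoded by Hp, binds free hemoglobin in plasma. Its signal was 302 in normal glucose, against 3772 in high glucose and 203 with DKK2. The high glucose array stood above both others and the DKK2 array was the lowest. Hp was 6.30-fold higher in high glucose (log2 difference 2.66, SD 0.20, rank 25 from the top) and 18.8-fold lower with DKK2 than in high glucose (-4.23, SD 0.20, rank 12 from the bottom). With DKK2 it was also 2.99-fold below normal glucose (-1.58, SD 0.20). Hp stayed at least 2-fold apart in all 3 comparisons under each of the other processings run, between 2.18 and 2.70 for glucose and between -4.27 and -3.79 for DKK2.

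Orm1 encodes alpha-1-acid glycoprotein, a plasma carrier of small molecules. Its signal was 12.5, 52.5 and 33.3 in normal glucose, high glucose and DKK2, which is dim on all arrays. The differences were 1.08 (SD 0.29) for glucose and -0.68 (SD 0.22) for DKK2, and with normexp that for glucose turned to -1.15. With cyclic loess it was 0.98, just under 2-fold. That left 5 of the 8 genes higher in high glucose, where 2.14% of 16766 genes were higher. The neighbouring copy Orm2, at signals of 16.8, 53.2 and 36.4, had differences of 0.67 and -0.57, and Orm3, at 13.97, 15.7 and 18.7, had -0.82 and 0.23. The 3 Orm genes are close copies, so their probes may share signal, and Orm2 and Orm3 did not pass 2-fold.

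Ptx3 encodes a long pentraxin that binds complement C1q and microbial surfaces. Its signal was 364 in normal glucose, against 2468 in high glucose and 459 with DKK2. The high glucose array was alone in being high. Ptx3 was 3.43-fold higher in high glucose (1.78, SD 0.20, rank 75 from the top) and 5.45-fold lower with DKK2 (-2.45, SD 0.20, rank 93 from the bottom). Between DKK2 and normal glucose its difference was -0.67 (SD 0.20).

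Lcn2 encodes a lipocalin that binds the iron carriers of bacteria. Its signal was 416, 902 and 606 in normal glucose, high glucose and DKK2. After scaling the glucose difference, 0.13, was smaller than its technical error of 0.20, and with normexp it was -0.05. The DKK2 difference was -0.60 (SD 0.20), a 1.51-fold lower level, so Lcn2 passed 2-fold in none of the comparisons.

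Wfdc21 encodes a small secreted protein. Its probe was spotted 10 times on each array, the only repeated probe among the 8 genes. The 10 spots read between 48.8 and 55.2 (median 52.4) in normal glucose, between 346 and 382 (median 370.3) in high glucose and between 7.12 and 38.7 (median 12.2) with DKK2. The spots of the 3 arrays did not overlap. With DKK2 1 spot at 38.7, flagged as an outlier by the scanner software and left out, stood apart from the next highest at 14.5, and 1 spot was left out in high glucose. Wfdc21 was 3.58-fold higher in high glucose (1.84, SD 0.21, rank 69 from the top) and 33.5-fold lower with DKK2 (-5.07, SD 0.31, rank 5 from the bottom). Of the 8 genes it lay furthest below normal glucose with DKK2, 9.35-fold lower (-3.22, SD 0.31). With normexp these values were 0.46, -2.58 and -2.12. Spots of 1 array repeat the measurement and not the culture.

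**Figure D2:**
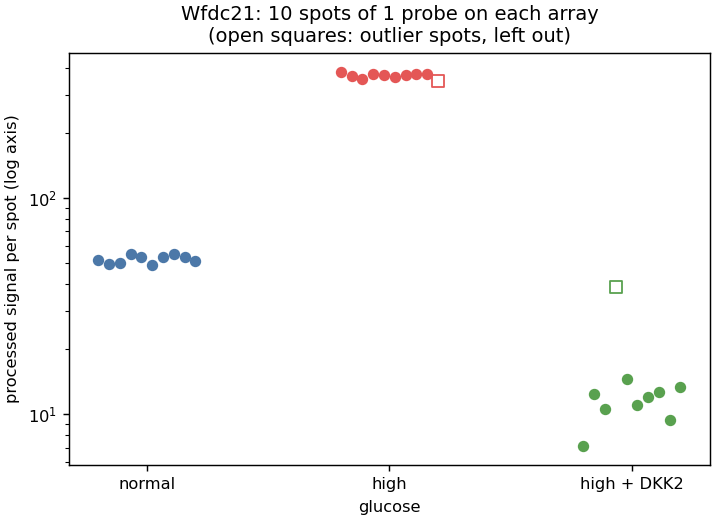
Processed signal (log axis) of the 10 Wfdc21 spots on each array, 1 point per spot, with open squares for spots left out as outliers. The high glucose spots lie between 346 and 382, the normal glucose spots between 48.8 and 55.2, and the DKK2 spots used between 7.12 and 14.5.

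Between DKK2 and normal glucose, 3 of the 8 genes were lower (Saa2, Hp and Wfdc21) and 0 higher, where 10.4% of 16676 genes were lower and 10.5% higher. Saa2 read 12.2 in normal glucose and 12.0 with DKK2 before scaling, both dim, so its difference of -1.04 rests on the scaling of the arrays. With normexp 4 of the 8 were lower, Orm1 at -1.35 among them, where 24.03% of all genes were lower and 5.63% higher. This last difference is the sum of the other 2 and adds no separate measurement. The size of the log2 difference with DKK2 equalled 82.9% of that of the glucose difference for Saa3 and 63.0% for Orm1. It was larger for the other 6 genes: 123% for Saa1, 126% for Saa2, 138% for Ptx3, 159% for Hp, 275% for Wfdc21 and 465% for Lcn2. The glucose difference of Lcn2 was within its error. For Saa1 the 2 sizes differed by less than the technical error (-0.14 between DKK2 and normal glucose, SD 0.20). With normexp the percentages were 113% for Saa3, 359% for Saa2 and 562% for Wfdc21, and Lcn2 and Orm1 had no glucose difference above 0 to set theirs against.

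**Figure D3:**
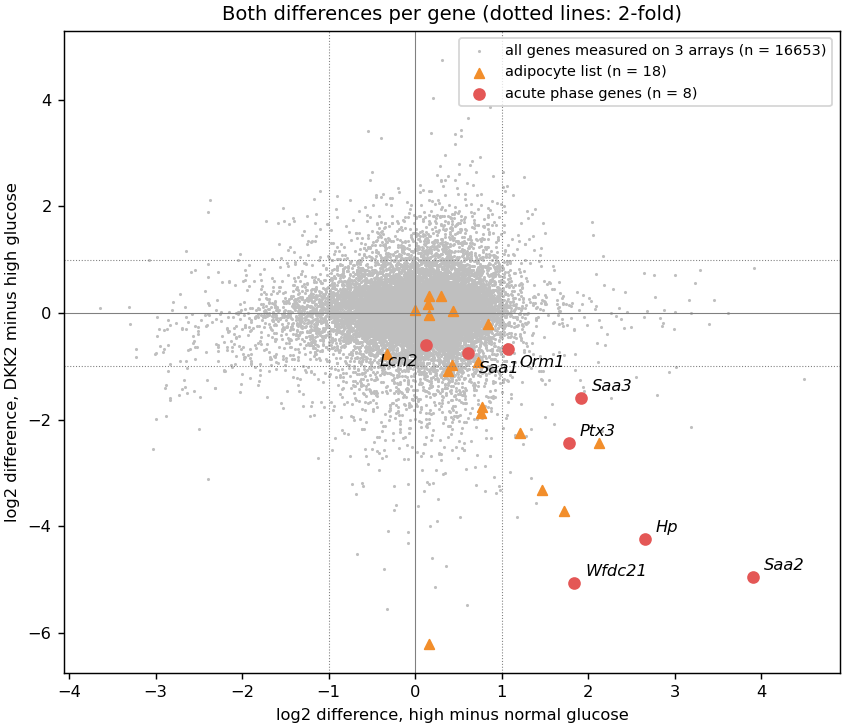
Log2 difference between high and normal glucose (x axis) against that between DKK2 and high glucose (y axis) for 16653 genes measured on all 3 arrays (grey), the 8 acute phase genes (red circles) and 18 adipocyte genes (orange triangles). Dotted lines mark 2-fold; Saa2, Saa3, Hp, Ptx3 and Wfdc21 lie in the lower right field, and Lcn2, Saa1 and Orm1 lie nearer the centre. Both axes share the high glucose array.

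The genes nearest to each acute phase gene in this plane, of 15730 genes with a settled name, differed with its place. Near the sparse corner the nearest genes were other acute phase genes and fat cell genes: Saa2 had Hp at a distance of 1.44 log2 units, Wfdc21 had Hp at 1.16, and Hp had Plin1 at 1.07. Plin1 encodes perilipin 1, the coat protein of fat droplets, and its signal was 71.7, 471 and 36.6 in normal glucose, high glucose and DKK2. The second nearest to Saa2 and to Hp was Wfdc21, and that to Wfdc21 was the muscle myosin light chain gene Myl1 at 1.31. The nearest to Ptx3 were Retn, the resistin gene of mouse fat cells, at 0.35 and the protocadherin gene Pcdh12 at 0.41, and to Saa3 Nudt18 at 0.13 and Olfr700 at 0.20. Saa1, Lcn2 and Orm1 lay in the crowded middle, where Prx, Ifngr1 and Zfp583, the nearest in that order, were within 0.008, 0.02 and 0.05. With 3 arrays such a distance is a description of 2 differences. The acute phase genes were picked because several read high in high glucose and low with DKK2, which are the axes of this plane. That Saa2, Hp and Wfdc21 were neighbours of each other is therefore a description of the choice. The nearest genes to them, at 1.07 to 1.44 log2 units, were also much further off than those in the crowded middle. The nearest genes were not sought with normexp, which moved several of these genes. With it Hp was at 2.18 for glucose and -3.79 for DKK2, away from Plin1 (0.59 and -2.41) and Wfdc21 (0.46 and -2.58). Saa2, at 0.67 and -2.40, then lay close to Plin1. Ptx3 was at 1.34 and -2.21 and Retn at 0.43 and -1.64.

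Among the other acute phase genes of plasma, a list of 39, high glucose had few differences of 2-fold. Of 29 measured, 2 were higher (the iron reductase gene Steap4 at 1.78 and the calprotectin subunit gene S100a8 at 1.26) and 2 lower (the hepcidin gene Hamp2 at -1.33 and the protease inhibitor gene Serpina3n at -1.15), with a median of -0.10. With normexp Steap4 was at 0.05 and S100a8 at 0.14, and 0 of the 29 were higher and 11 lower. With DKK2 the list had 3 of 31 higher and 4 lower and its median was 0.07. The largest differences were those of S100a8 at 2.55, the complement factor B gene Cfb at -2.32, the IL-1 receptor antagonist gene Il1rn at 2.07 and the C1 inhibitor gene Serping1 at -1.96. None of the 29 was higher in high glucose and lower with DKK2 by 2-fold.

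Of the cytokines and receptors that act upstream, 24 of 27 were measured and 0 were higher in high glucose. Lif, a cytokine of the IL-6 family, was lower at -2.59, and Cntfr, a receptor subunit gene of that family, at -1.85. Il6 itself, named for its role after its values were seen, had signals of 56.2, 170 and 267 and differences of 0.61 and 0.63, neither of them 2-fold. The IL-22 receptor gene Il22ra1 was not well above background in normal glucose (signals 6.04, 72.9 and 103.2) and was at least 4.86-fold higher in high glucose, outside these counts. With DKK2 2 of 25 were higher and 3 lower: the IL-33 receptor gene Il1rl1 was at 3.32, Il11 at 1.37, the LIF receptor gene Lifr at -1.95 (-1.05 as the mean over its probes) and Il6st, which encodes gp130, at -1.07.

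Among 24 transcription factors and feedback genes, 1 of 21 measured was higher in high glucose, Cebpd at 1.23, which encodes an acute phase C/EBP factor. Its signal was 20644, 95865 and 127734 in normal glucose, high glucose and DKK2, so it was high on both high glucose arrays. The NF-kappaB subunit gene Nfkb2 was lower at -1.20. With DKK2 2 of 23 were higher and 1 lower: Rel was at 1.47 (0.51 with normexp), Nfkbiz, which encodes a nuclear cofactor of NF-kappaB, at 1.06 (0.96), and Cebpe at -1.58 (-0.15), so that with normexp 0 of 23 were higher or lower. Cebpd had a difference of 0.39 with DKK2, and Socs3, a STAT3 feedback gene named for its role after its values were seen, had 0.57 and 0.35.

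Of 26 receptors and partners of these proteins, 1 of 22 measured was higher in high glucose, the scavenger receptor gene Cd36 at 2.19 (0.97 with normexp, where 0 were higher and 7 lower). With DKK2 7 of 23 were higher. The endotoxin co-receptor gene Cd14 was at 2.03 and the C1q genes C1qa and C1qc at 1.94 and 1.71. With normexp 3 were higher. Cd14 and the C1q genes are also on the macrophage list, and S100a8 is also on the neutrophil list.

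**Figure D4:**
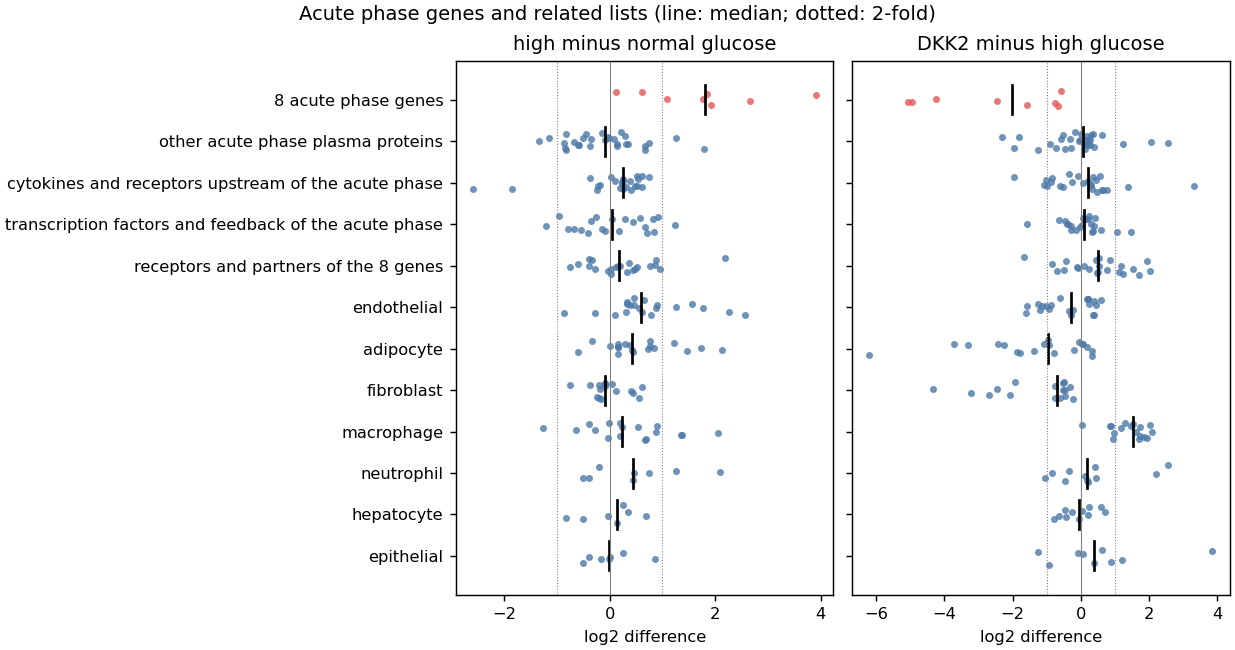
Log2 differences of single genes (points) and list medians (black lines) for the 8 acute phase genes (red) and 11 other lists (blue), high minus normal glucose on the left and DKK2 minus high glucose on the right. Dotted lines mark 2-fold. The median of the 8 genes is 1.81 on the left and -2.02 on the right. Because the 8 genes were picked for this pattern, their medians describe the choice. The medians of the other acute phase plasma proteins are -0.10 and 0.07. The adipocyte list has a median of -0.97 on the right and the macrophage list one of 1.54.

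Genes of other cell types also differed between the arrays. Of 20 adipocyte genes, 4 of 19 measured were higher in high glucose and 0 lower, with Retn at 2.13, Plin1 at 1.73, the adipsin gene Cfd at 1.47 and the fat cell adrenergic receptor gene Adrb3 at 1.22. With normexp 1 was higher and 2 were lower, Retn was at 0.43, Plin1 at 0.59 and Adrb3 at 0.71, and as the mean over its probes Adrb3 was at 0.72. With DKK2 9 of 19 were lower and 0 higher, with the adiponectin gene Adipoq at -6.20 (-4.18 with normexp), Plin1 at -3.71 (-2.41 with normexp), Cfd at -3.32 and Retn at -2.44. Car3, a carbonic anhydrase gene abundant in mouse fat, read 1053 and 1375 in normal and high glucose and was not well above background with DKK2, at least 159.7-fold lower than in high glucose and outside these counts. The summed signal of the list's genes above background was 31.6, 39.5 and 22.8 times the array's 75th percentile in normal glucose, high glucose and DKK2, and 19, 20 and 19 genes were above background. The leptin gene Lep was dim throughout, with signals of 15.6, 31.3 and 37.6. Fibroblast genes had 0 of 16 higher or lower in high glucose and 6 of 16 lower with DKK2, with Mfap4 at -4.32, Clec3b at -3.21, Dpt at -2.68 and Postn at -2.44. Their summed signal was 615, 567 and 410.0 times the 75th percentile. The part of either cell type in the acute phase differences was not tested.

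Macrophage genes had 3 of 17 measured higher and 1 lower in high glucose, and with DKK2 12 of 17 were higher and 0 lower. Their summed signal was 28.8, 21.6 and 34.4 times the 75th percentile. Of 15 neutrophil genes, 2 of 8 measured were higher in high glucose, and with DKK2 2 of 11 were higher and 1 lower; Retnlg and Cxcr2 were not well above background on any array. Their summed signal was 15.8, 61.1 and 67.9 times the 75th percentile, and Csf3r alone read 16734, 141362 and 157578. Hepatocyte genes had 0 of 7 higher or lower in high glucose and 0 of 11 with DKK2. With normexp 3 of 7 hepatocyte genes were lower in high glucose, the neutrophil list had 1 higher and 4 lower, and the macrophage list had 2 higher and 3 lower. Albumin (Alb) was not well above background in normal glucose and read 12.4 in high glucose and 14.5 with DKK2. Epithelial genes had 0 of 7 higher or lower in high glucose, and with DKK2 2 of 9 were higher, Krt18 at 3.86 and Krt19 at 1.20, and 1 lower. Endothelial genes had 5 of 20 higher in high glucose and 6 of 21 lower with DKK2. Icam2 was at 2.56, Robo4 at 2.26 and Cldn5 at 1.55 for glucose, and at -1.20, -1.60 and -1.25 for DKK2. Mmrn2, at 1.76 for glucose, was not 2-fold lower with DKK2 and stayed above normal glucose at 1.53. Sox18, at -1.58 for DKK2, was not 2-fold higher in high glucose. With normexp the glucose values of Icam2, Robo4, Cldn5 and Mmrn2 were 0.89, 0.88, -0.25 and 0.92, and Sox18 was at -0.65 for DKK2. The endothelial list then had 0 higher and 2 lower for glucose and 1 lower for DKK2. Of all genes on these lists measured in both comparisons, 7 were higher in high glucose and then lower with DKK2. Among all genes measured on the arrays, 60 of 16653 (0.36%) were. They were the endothelial genes Icam2, Robo4 and Cldn5 and the adipocyte genes Plin1, Cfd, Retn and Adrb3.

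The place of the acute phase genes in the genome was compared through the order of protein-coding genes in RefSeq. The Saa genes lie together on chromosome 7 in the order Saa3, Saa4, Saa1 and Saa2, between Saal1 and Hps5, and the Orm genes lie together on chromosome 4. Saa4, a form that is also made without inflammation, read 5.63, 44.2 and 105.9 in normal glucose, high glucose and DKK2. It was not well above background in normal glucose, at least 2.95-fold higher in high glucose, and higher with DKK2 than in high glucose at 1.24 (0.73 with normexp), where the other 3 Saa genes had lower readings. Saal1 and Hps5, on either side of the cluster, had differences of -0.36 and 0.26 for glucose and 0.07 and -0.11 for DKK2. Of the 25 genes within 2 places of any of the 8 genes, 2 of 21 measured were higher and 2 lower in high glucose, and 2 of 24 were higher and 2 lower with DKK2, with medians of -0.03 and 0.14. The neighbours of Wfdc21 on chromosome 11 include the related genes Wfdc17, at 1.26 for glucose and 0.80 for DKK2, and Wfdc18, at 1.25 for DKK2 and not measured on both arrays for glucose.

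Quantile normalization, median scaling, cyclic loess and the deposited value table left each of the 8 genes within its technical error for the glucose and the DKK2 difference. All of these start from the same background-corrected signal. Normexp moved Saa2, Orm1 and Wfdc21, the dimmest of the 8, by more than the others for glucose. For the 5 genes with a signal of at least 100 on every array (Saa1, Saa3, Hp, Lcn2 and Ptx3), the glucose differences with normexp were 0.44, 1.31, 2.18, -0.05 and 1.34, and the DKK2 differences were -0.69, -1.47, -3.79, -0.54 and -2.21.

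**Figure D5:**
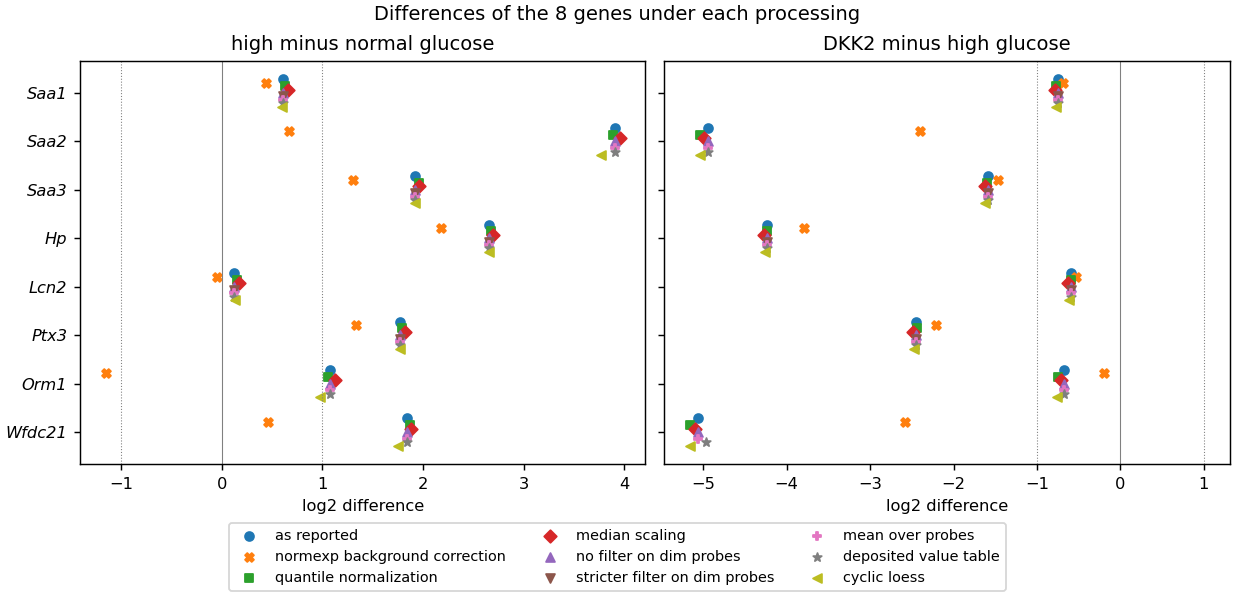
Log2 difference of each of the 8 genes under each processing (1 symbol per setting), high minus normal glucose on the left and DKK2 minus high glucose on the right, with dotted lines at 2-fold. The crosses of normexp stand furthest from the rest for Saa2, Orm1 and Wfdc21 on the left, and Orm1 changes side on the left; the other settings overlap.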

How the data were processed

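Cy3-labelled cRNA of 3 pooled RNA samples per condition was hybridised to 1-colour Agilent arrays. Per the file headers, the scanner software was Feature Extraction 11.5.1.1, and the deposited files hold background-corrected intensity on a linear scale with its error and flags. The authors' deposited value table equals that intensity averaged over spots for 99.7% to 99.8% of 39429 probes (tolerance 0.1%), with no log, scaling or centring; column medians were 101.8, 196.2 and 204.6.

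Control and outlier spots were left out (110, 115 and 136 outliers); none was saturated. Values are log2 intensity minus each array's 75th percentile over probes, averaged over spots. A probe counted as above background if at least 50% of its spots were. Probes were named by accession through RefSeq (GRCm38.p6): 27508 matched 1 symbol and 11921 none. The headers give another build, so no probe was matched by coordinate. RefSeq coordinates gave only the order of genes and the promoter windows. A gene's value is its brightest probe above background on any array. The number of arrays limits the precision: errors come from the scanner's error model, averaged over the spots of a probe. The spread between repeated spots did not enter them. The 8 genes and all lists were chosen with earlier results of these data known. Named genes are the 8, up to 4 per list and comparison by size, and the 2 nearest per gene; genome neighbours were added by position. A gene of the receptor list that the rule names is not reported here. Counting was tested on simulated data. Alternatives were normexp (median signal, offset 50), quantile, median scaling, no filter, a stricter filter (signal of at least 100), mean over probes, the deposited table, 1.5-fold and 3-fold rules and, added after seeing the data, cyclic loess. Tools were Python 3.11.15, numpy 2.4.6, pandas 2.3.3, biopython 1.88, R 4.3.3 and limma 3.58.1.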

Additional observations from a re-analysis of the deposited data

How the results depend on the processing

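With normexp 3 of 8 genes were higher in high glucose and 1 was lower, in place of 6 and 0; Orm1 turned from 1.08 to -1.15 for glucose. By construction a fixed offset weighs more on dim probes and on the dimmer normal glucose array, and the all-gene median went from 0.09 to -0.26. The parts of the offset, the background model and the median signal in these shifts were not separated. With the stricter filter 5 genes were left, of which 3 were higher in high glucose (1.80% of all genes), 3 lower with DKK2 (4.04%) and 1 lower with DKK2 than in normal glucose (9.35%). A 1.5-fold rule called 8 of 8 lower with DKK2 (11.3% of all genes), and a 3-fold rule called 1 of 8 lower with DKK2 than in normal glucose (4.49%). With 1 probe a gene, the filters and the mean over probes cannot move a value. Of 120 values of single genes under the 5 other settings, 105 stayed within the technical error. The remaining values, 14 that moved further and 1 that reversed, were all from normexp. Apart from normexp, these settings start from the same background-corrected signal. The deposited table holds that signal itself, and median scaling shifts all genes of an array alike, so neither could move a value far. The 120 values include the differences between DKK2 and normal glucose, which are sums of the other 2. Dim signal limits Saa2, Orm1 and Wfdc21. No paired analysis was possible because each condition had 1 array; leaving out an array removes a comparison.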
